A study of Mus musculus with 35 samples.

Results

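The 40 genes described here are core cell cycle and proliferation genes, chosen by symbol from a gene table of 32544 rows; all 40 symbols were found. They were read in hippocampi of mice killed 24 h or 2 weeks after an injection into the amygdala. The injected agent was either kainic acid (KA), a glutamate receptor agonist that sets off status epilepticus, or phosphate-buffered saline (PBS). For each group there were m6A libraries, made from RNA pulled down with an antibody against N6-methyladenosine, and input libraries of total RNA. All mice were C57BL/6JOlaHsd males aged 7 to 9 weeks; the methods give an injection of the sedative lorazepam 40 minutes after KA, and this mouse model develops spontaneous seizures afterwards. The labels name no transgene or gene deletion.

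A cell leaves rest when D-type cyclins activate Cdk4 and Cdk6. E2F factors then switch on the genes of DNA synthesis, among them the 6 subunits of the MCM helicase, which is loaded on replication origins. Later cyclins A and B with Cdk1 drive mitosis, in which kinetochore, checkpoint and spindle proteins divide the chromosomes. Neurons have left the cycle for good, and the cells that can divide in the adult hippocampus are mainly glia, vessel cells and the progenitors of the dentate gyrus. In bulk tissue, fewer cells of a type and less RNA per cell cannot be told apart.

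The m6A libraries numbered 19: 5 KA and 3 PBS at 24 h, 6 KA and 5 PBS at 2 weeks. They held 1652933 to 34564536 counts. The 13 input libraries held 3057578 to 12694434 counts and comprised 3 KA and 1 PBS at 24 h, and 6 KA and 3 PBS at 2 weeks; 3 further input libraries of 24 h with 3171 to 34486 counts entered no main comparison. Most of the genes were weakly expressed. In the m6A libraries 11 of the 40 had a median under 1 CPM (counts in every 1000000 counts of the library) and 10 had a median of 10 CPM or more. KA mouse 8 (24 h) stood apart in both of its libraries. At an equal depth, 23079 genes would be seen in its m6A library and 23608 in its input library, against 15892 to 18810 in the other 30 libraries. Its mean rank correlation with the other libraries of the same kind was 0.83 for m6A and 0.862 for input, against 0.891 to 0.961 elsewhere. Mitochondrial transcripts took 16.36% of the m6A and 17.41% of the input counts of mouse 8, against 1.86% to 8.31% of the other m6A libraries of 24 h and 1.41% to 6.45% of the other input libraries. In m6A libraries of 2 weeks the share ran from 2.70% to 17.54%. Among m6A libraries it therefore set mouse 8 apart only within 24 h. The main results of 24 h are therefore given with and without mouse 8.

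No cell cycle gene passed an adjusted p of 0.05 in any of the 4 comparisons of KA with PBS (edgeR quasi-likelihood test, adjusted by Benjamini-Hochberg over all genes tested). Over all genes the same test called 1 higher gene in the m6A libraries at 24 h, 0.00607% of 16470, and no lower one. It called 0 genes, or 0%, in either direction in each of the other 3 comparisons. In m6A libraries of 24 h the 4 smallest p-values of the 40 genes belonged to genes of the MCM helicase, none of which passed. In m6A libraries of 24 h the MCM helicase genes lay higher in 4 of 5 KA mice than in every PBS mouse. The exception was mouse 8, and over all genes tested without it 7.21% did so. For Mcm7 the gap was narrow, at 10.3 CPM in KA mouse 97 and 10.1 CPM in PBS mouse 1. With mouse 8 included, only Mcm5 of the MCM genes had every KA library above every PBS library.

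Mcm5 had the smallest p of the 40 in that comparison. Its promoter and that of Mcm6 are shown because both hold the E2F-type element that MCM genes are known for, here in capitals (RefSeq, GRCm38.p6, the 250 bases before the start, 5′ to 3′ in the direction of the gene). Mcm5 is at chr8:75109259-75109508 on the plus strand and Mcm6 at chr1:128359706-128359955 on the minus strand. The third, Cdk1 at chr10:69352913-69353162 on the minus strand, is shown for contrast as a mitotic gene with both an E2F-type element and 2 copies of the CHR element TTTGAA, also in capitals.
Mcm5: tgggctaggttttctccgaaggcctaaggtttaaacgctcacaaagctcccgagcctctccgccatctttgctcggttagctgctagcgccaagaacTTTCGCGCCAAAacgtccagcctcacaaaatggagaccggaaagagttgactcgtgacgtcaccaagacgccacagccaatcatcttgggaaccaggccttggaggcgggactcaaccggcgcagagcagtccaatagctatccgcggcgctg
Mcm6: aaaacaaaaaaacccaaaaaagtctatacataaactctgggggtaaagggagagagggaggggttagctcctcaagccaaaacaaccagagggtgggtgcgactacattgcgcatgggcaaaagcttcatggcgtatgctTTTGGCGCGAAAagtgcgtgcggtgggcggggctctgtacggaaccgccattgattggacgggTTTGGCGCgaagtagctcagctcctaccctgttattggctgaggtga
Cdk1: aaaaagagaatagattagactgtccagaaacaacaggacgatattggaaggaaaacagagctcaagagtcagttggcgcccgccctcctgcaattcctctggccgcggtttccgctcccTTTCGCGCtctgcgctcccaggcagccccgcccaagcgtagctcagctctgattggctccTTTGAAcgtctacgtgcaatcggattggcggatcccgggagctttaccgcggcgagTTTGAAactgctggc
The E2F-type letters searched were TTTCGCGC and TTTGGCGC on both strands. In Mcm5 and in the distal site of Mcm6 a match on each strand overlaps the other. Of 32851 promoter windows of 300 bases (the bases shown and 50 after the start), 0.813% hold such a match. Among the 32 cell cycle genes with a window, Mcm3, Mcm5, Mcm6, Mcm7 and Cdk1 do. TTTGAA, which can overlap neither E2F-type word, stands in 17.9% of all windows and in those of 13 of the 32 genes, among them Mcm2, Mki67 and Top2a. These matches are letters in a window and say nothing of binding.

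Mcm5 read 8.59, 4.97, 5.35 and 6.66 CPM in the m6A libraries of KA mice 67, 79, 97 and 98 at 24 h. Mouse 8 read 3.19 CPM and the 3 PBS mice 1.99, 2.51 and 2.22 CPM. All 5 KA libraries lay above all PBS libraries. On the log2 scale KA exceeded PBS by 1.28 ± 0.38 (SE; unadjusted p = 0.00669, adjusted p = 0.55, edgeR). The libraries of mice 67 and 98 were the shallowest, and these values rest on 17 and 11 counts, against 159 counts in mouse 79.

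Mcm2, another subunit of the helicase, read 18.2, 11.5, 13.8 and 11.5 CPM in KA mice 67, 79, 97 and 98, and 2.66, 6.63 and 4.01 CPM in the PBS mice. Mouse 8, at 4.01 CPM, was within the PBS range. Mcm3 read 12.6, 15.1, 13.1 and 10.9 CPM in the same 4 KA mice, 5.42 CPM in mouse 8, and 3.47, 7.35 and 2.79 CPM in PBS mice. Mcm6 read 22.7, 19.3, 16.3 and 10.9 CPM, with 8.01 CPM in mouse 8 and 6.94, 8.64 and 6.22 CPM in PBS mice. The log2 fold changes were 1.32 ± 0.43 for Mcm2, 1.29 ± 0.38 for Mcm3 and 1.03 ± 0.31 for Mcm6 (SE, adjusted p from 0.555 to 0.62, edgeR). These 3 genes were taken up after their values were seen. Mcm4 and Mcm7, the remaining subunits, had log2 fold changes of 0.57 ± 0.35 and 0.60 ± 0.33.

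**Figure D1:**
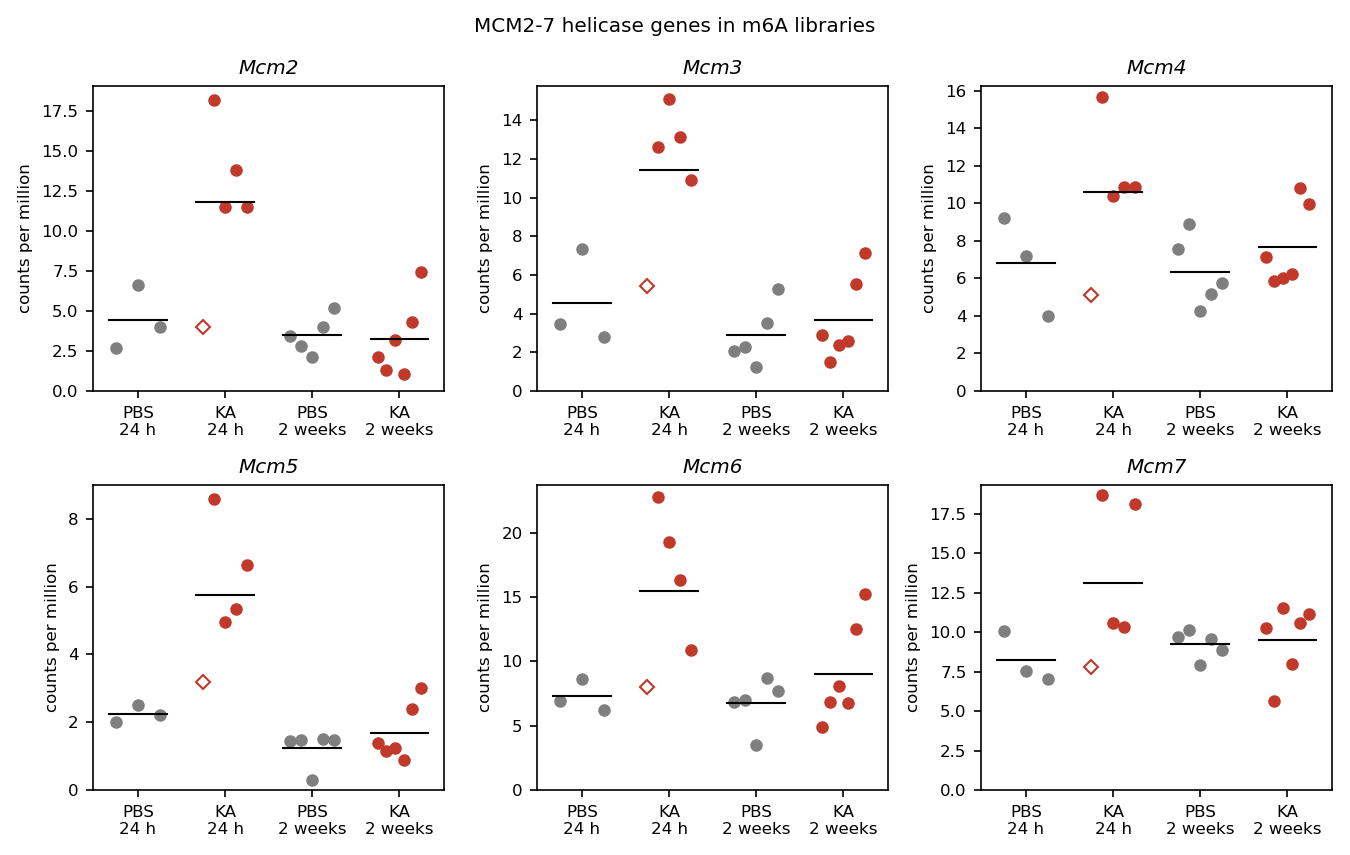
CPM (vertical axis, from 0) of the 6 MCM helicase genes in each m6A library, by treatment and time. Each point is 1 mouse, the line is the group mean, and the open diamond is KA mouse 8. The filled KA points of 24 h lie above every PBS point of 24 h in all 6 panels.

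Summed over the 6 genes, the m6A libraries of KA mice 67, 79, 97 and 98 held 96.5, 71.8, 69.8 and 69.0 CPM. The PBS libraries held 34.4, 39.9 and 26.3 CPM, and that of mouse 8 held 33.5 CPM. Without mouse 8, the log2 fold changes ran from 0.66 to 1.51 over the 6 genes, with a median of 1.25 against -0.01 over all 16112 genes tested. The smallest adjusted p among the 6 was then 0.147, for Mcm2 (edgeR). No cell cycle gene was called without mouse 8, while 0.267% of all genes were called higher and 0.0124% lower. Of 34 cell cycle genes tested in that set, 8 had every KA library above every PBS library: the 6 MCM genes, Ccnd1 and Ccnd3. Over all genes tested that share was 7.21%. With mouse 8 included it was 2 of 37 (Ccnd3 and Mcm5), where 2.62% of all genes did so; none of the cell cycle genes lay wholly below PBS, where 2.17% of all genes did without mouse 8 and 1.09% with it.

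Library sets, as the prefixes of the column names mark them, were uneven between treatments at 24 h: KA in 3 and 4, PBS in 4 and 5. Within set 4, which held 2 KA and 2 PBS libraries, the log2 fold changes were 1.12 for Mcm2, 1.34 for Mcm3, 1.00 for Mcm5 and 1.14 for Mcm6, and Mcm6 passed (adjusted p = 0.0435, edgeR), where 1.47% of all genes were called higher and 0.639% lower. With the set as a block over all 8 libraries they were 1.14, 1.37, 1.00 and 1.15, and none passed. Set 3 held only KA and set 5 only PBS libraries at 24 h. The block estimate therefore rests on the same set 4 libraries and is no separate check. The tools differed in their calls. limma voom with sample quality weights, which gave mouse 8 a weight of 0.146, called Mcm2, Mcm3, Mcm5, Mcm6 and Cdk4, among the 4.59% of genes it called higher, and none among the 2.22% it called lower. Its adjusted p was 0.0146, 0.0328, 0.00596, 0.005 and 0.0409 in that order. DESeq2 called none of the 35 cell cycle genes it gave an adjusted p and 142 genes as higher, or 0.862% of all, with 0.085% lower; its adjusted p was between 0.12 and 0.211 for Mcm2, Mcm3, Mcm5 and Mcm6.

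The summed CPM of 7 astrocyte markers was 2616, 3488, 3562 and 1833 in KA mice 67, 79, 97 and 98, 713 in mouse 8, and 987 to 1440 in PBS mice. That of 12 microglia markers was 330 to 505 in the 4 KA mice, 217 in mouse 8 and 260 to 340 in PBS mice. For 5 endothelial markers these sums were 409 to 469, 294 and 200 to 280 CPM. For 7 neural progenitor and neuroblast markers they were 162 to 448, 115 and 124 to 282 CPM, and for 6 oligodendrocyte precursor markers 140 to 268, 49.1 and 95.1 to 259 CPM. Thus in the m6A libraries all 4 KA mice other than mouse 8 lay above every PBS mouse for astrocyte and endothelial markers. The input libraries, given below, did not share the endothelial difference. Microglia, progenitor and oligodendrocyte precursor sums overlapped in the m6A libraries. Mitochondrial transcripts took 1.86% to 2.74% of the counts in these 4 mice and 2.31%, 5.98% and 8.31% in PBS mice. No marker gene was at 0 in a 24 h group. The part of these cells and of the mitochondrial share in the MCM values was not tested.

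Upstream of DNA replication, the D-type cyclins differed from one another. Ccnd1 read 31.8, 35.1, 32.8 and 33.3 CPM in KA mice 67, 79, 97 and 98 and 13.0, 21.3 and 16.5 CPM in PBS mice, but 6.83 CPM in mouse 8, the lowest of the 8 libraries. The difference, on the log2 scale, came to 0.64 ± 0.41 (SE, edgeR adjusted p = 0.983), and to 0.88 ± 0.24 without mouse 8 (edgeR adjusted p = 0.254). Ccnd2 read 65.7, 51.9, 58.2 and 44.2 CPM in the 4 KA mice, 24.4 CPM in mouse 8 and 42.6, 63.4 and 53.6 CPM in PBS mice. The groups overlapped and the log2 fold change was -0.18 ± 0.26. Ccnd3 read 11.0 to 23.2 CPM in all 5 KA mice and 7.09 to 8.75 CPM in PBS mice, a log2 difference of 0.92 ± 0.33 (SE, edgeR adjusted p = 0.726). With the set as a block it was 0.28. Cdk4, the kinase of these cyclins, had a log2 fold change of 0.43 ± 0.27. The E-type cyclins, Cdk2 and E2f1, which follow in the G1 to S step, had log2 fold changes from -0.12 to 1.39, and 2 of the 4 were above 0.

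Pcna, the clamp that holds DNA polymerase on its template, read 19.2, 27.5, 23.9 and 23.6 CPM in KA mice 67, 79, 97 and 98, 24.0 CPM in mouse 8, and 29.6, 16.9 and 12.3 CPM in PBS mice. The groups overlapped, and the log2 fold change was 0.29 ± 0.33. Cdc6, which loads the helicase with Cdt1, had 1.96 ± 1.04 at 0 to 2.82 CPM. Of the genes that make deoxynucleotides, Tyms (thymidylate synthase) read 153 CPM in mouse 8, against 22.4 to 35.1 CPM in the other KA mice and 27.4 to 46.8 CPM in PBS mice. The log2 difference turned from 0.65 to -0.61 when mouse 8 was left out. Rrm1, a ribonucleotide reductase subunit, read 608 CPM in mouse 8 and 168 to 342 CPM in the other 7 libraries.

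Most mitotic genes were highest in mouse 8. Top2a, which untangles DNA before division, read 30.0 CPM there, 12.6, 8.56, 10.5 and 6.66 CPM in KA mice 67, 79, 97 and 98, and 9.01, 9.11 and 5.01 CPM in PBS mice. Cdk1, the mitotic kinase, read 6.08 CPM in mouse 8, 0.74 to 1.82 CPM in the other KA mice and 0.64 to 1.29 CPM in PBS mice. The log2 difference between KA and PBS was 1.34 ± 0.85, and 0.00 without mouse 8. Ccna2, its cyclin A partner, read 4.67 CPM in mouse 8, 0 to 1.78 CPM in the other KA mice and 1.00 to 3.10 CPM in PBS mice, and its log2 fold change went from 0.24 to -0.59 without mouse 8. In all, 19 of the 40 genes were highest in mouse 8 among the 8 m6A libraries of 24 h and 3 (Ccnd1, Ccnd2, Ccne1) lowest. Among the 4 input libraries of 24 h, 24 were highest in mouse 8 and 4 lowest (Ccnd1, Ccnd2, Mcm4 and Mcm6). The share of all genes that were highest or lowest in mouse 8 was not counted. These counts therefore have no background beside them and cannot be read as particular to cell cycle genes. The excitatory neuron markers of mouse 8 summed to 628 CPM in the m6A library, against 1770 to 3665 CPM in the other 7, and its leukocyte markers to 79.5 CPM against 10.9 to 37.4 CPM. Their part was not tested.

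Mki67 encodes the proliferation marker Ki-67. It read 17.2, 18.8, 23.8 and 15.1 CPM in KA mice 67, 79, 97 and 98, 20.5 CPM in mouse 8, and 8.04, 16.3 and 10.1 CPM in PBS mice. Only PBS mouse 71, at 16.3 CPM, reached the KA range. The log2 fold change was 0.76 ± 0.32 (SE; unadjusted p = 0.037, adjusted p = 0.88, edgeR). It was 0.63 without mouse 8 (unadjusted p = 0.0584) and 0.58 with the set as a block (unadjusted p = 0.173, edgeR).

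**Figure D2:**
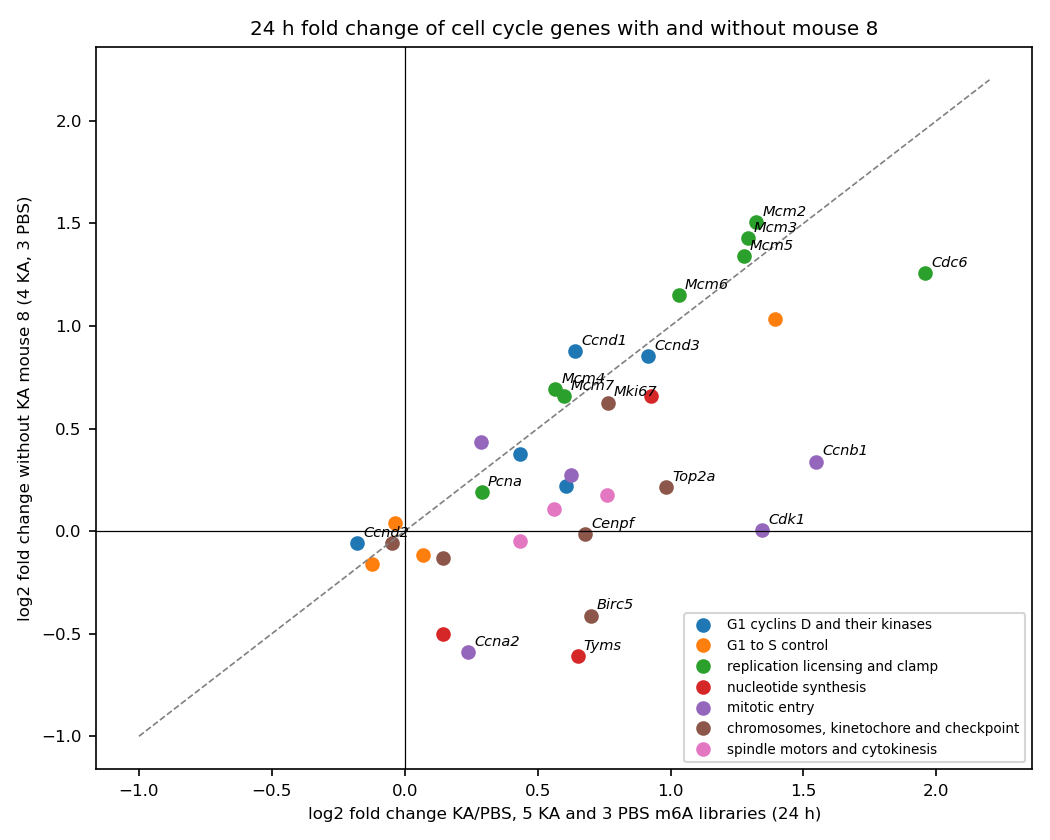
Log2 fold change of KA over PBS at 24 h in m6A libraries for the 34 cell cycle genes tested in both fits, with all 5 KA libraries (horizontal axis) and without mouse 8 (vertical axis). Points are coloured by role and the dashed line marks equality; the MCM genes stay near it, from 0.66 to 1.51 without mouse 8, while Cdk1 drops from 1.34 to 0.00.

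Across all 37 cell cycle genes tested at 24 h in m6A libraries, 33 had a log2 fold change above 0, with a median of 0.64 against 0.08 over all 16470 genes. Without mouse 8, 23 of 34 were above 0, with a median of 0.22 against -0.01. Of the 37, 6 had an unadjusted p under 0.05, all higher in KA: Mcm2, Mcm3, Mcm5, Mcm6, Ccnd3 and Mki67. Over all genes 4.02% were higher and 1.29% lower by that rule. Without mouse 8, 7 of 34 were under it: Ccnd1 came in, Mki67 dropped out and Tyms was lower in KA (unadjusted p = 0.041, edgeR), where 5.42% of all genes were higher and 3% lower. With the set as a block only Mcm3 and Mcm6 of the 6 stayed under it (unadjusted p = 0.0229 and 0.021, edgeR), where 3.42% of all genes were higher and 1.23% lower. Of 103 other cell cycle genes in the table, 92 were tested with mouse 8 included. Of these, 72 were above 0 with a median of 0.39, and none passed an adjusted p of 0.05. Of these 92, 4 were higher at an unadjusted p under 0.05, a share near the 4.02% of all genes that were higher by that rule. They were Cdkn1a (the cell cycle inhibitor p21), Cdt1 (which loads the MCM helicase), Gadd45a (a growth arrest gene) and Uhrf1 (which carries DNA methylation through replication). Cdt1 had a log2 fold change of 2.33 ± 0.57 and Cdkn1a of 2.06 ± 0.49 (SE, adjusted p of 0.37 and 0.341, edgeR). Both values also include mouse 8. In its m6A library the G2 and mitosis genes among the 103 summed to 524 CPM. The other KA mice had 339 to 384 CPM and PBS mice 296 to 422 CPM. For replication, RB and E2F family, and inhibitor and p53 target genes, mouse 8 did not stand above the other KA mice.

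**Figure D3:**
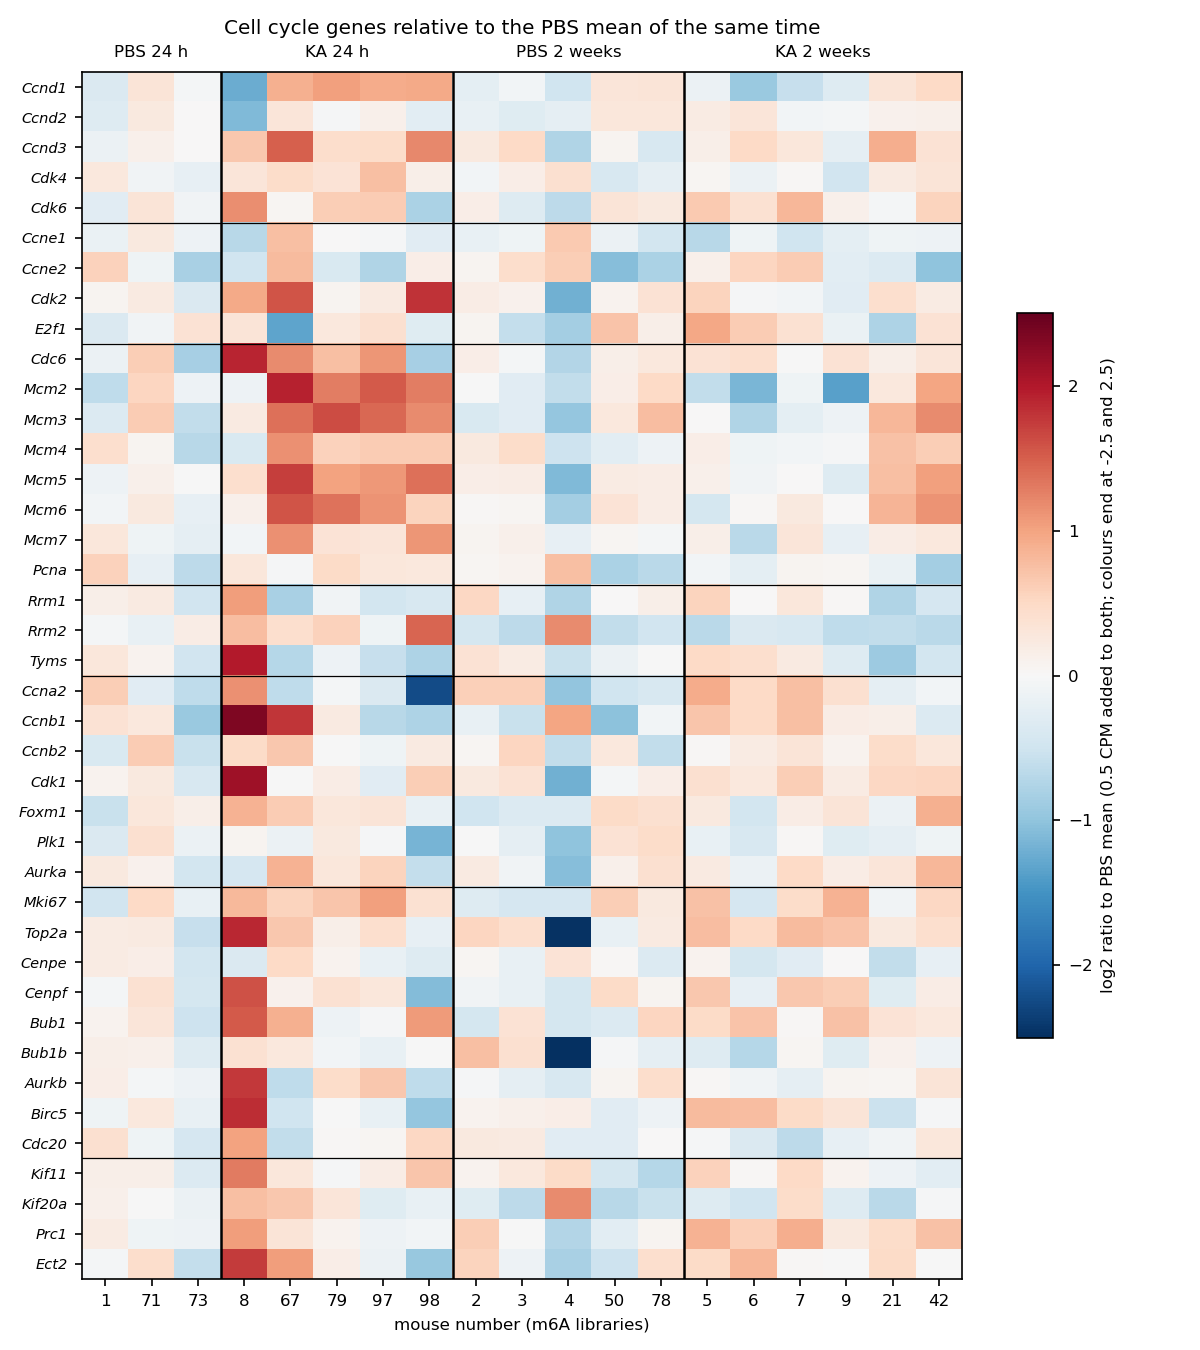
Log2 ratio of each cell cycle gene (rows, grouped by role from G1 cyclins at the top to cytokinesis at the bottom) in each m6A library (columns, by mouse number) to the PBS mean of the same time, with 0.5 CPM added to both. Red is above the PBS mean and blue below; the MCM block is red in KA mice 67, 79, 97 and 98 and again, more faintly, in mice 21 and 42 of 2 weeks, and the mitotic block is red mainly in mouse 8.

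Input libraries of 24 h had a single PBS mouse, mouse 1, so the spread came from all 13 input libraries in the fit. Mcm2 read 7.82, 6.91 and 6.46 CPM in KA mice 67, 98 and 8 and 3.15 CPM in the PBS mouse. Mcm3 read 10.2, 9.98 and 7.36 CPM against 2.84 CPM. Their log2 fold changes were 1.46 ± 0.50 and 1.98 ± 0.65 (SE, adjusted p = 0.405 and 0.396, edgeR). The scaling matters here: TMM scaling put the median of all 17644 genes at 0.27, and plain library size put it at -0.04.

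Mcm5 read 3.82, 3.33 and 3.23 CPM in the KA mice and 2.21 CPM in the PBS mouse, and its log2 fold change was 0.95 ± 0.59. Mki67 read 10.4, 8.45 and 11.2 CPM in KA mice 67, 98 and 8 and 5.67 CPM in the PBS mouse (1.15 ± 0.38, adjusted p = 0.396, edgeR). Cdk6, a G1 kinase, read 15.1, 13.8 and 17.9 CPM against 8.43 CPM (1.22 ± 0.37, adjusted p = 0.373, edgeR). Ccnd1 again split the KA mice, with 27.5 and 35.3 CPM in mice 67 and 98, 7.26 CPM in mouse 8 and 14.3 CPM in the PBS mouse. Pcna was lower in all 3 KA mice, at 16.6 to 20.7 CPM, than in the PBS mouse at 27.1 CPM, with a log2 fold change of -0.18 ± 0.23.

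Of the 37 cell cycle genes tested in input libraries of 24 h, 33 were above 0, with a median of 0.79 against 0.27 over all genes. As the median of all genes was itself above 0, the count of 33 is not in itself particular to these genes. Without mouse 8, 17 of 29 were above 0, with a median of 0.30 against 0.03. Of the 37, 4 had an unadjusted p under 0.05, all higher in KA (Mcm2, Mcm3, Mki67 and Cdk6), where 4.99% of all genes were higher and 4.24% lower by that rule. With 1 PBS library, 10 of the 37 had every KA library above it and 4 (Ccne1, Ccne2, Cenpe and Pcna) had every one below it, and the shares over all genes were 10.9% and 33.1%. Without mouse 8 it was 12 of 29 above and 12 of 29 below, where 28.8% and 53.2% of all genes were. voom called Mcm2, Mcm3, Ccnd1 and Cdk6, among the 3.2% of all genes it called higher (2.79% lower). DESeq2 called none of the 37, with 0.442% of all genes higher and 0.697% lower. Without mouse 8, edgeR called none of the 29 and 0.591% of all genes in each direction; 6 of the 29 were higher at an unadjusted p under 0.05 and none lower, where 11.6% and 9.34% of all genes were. With the PBS mice of both times as controls, edgeR called Mcm2 (1.79, adjusted p = 0.0383) and Mcm3 (2.49, adjusted p = 0.0334), where 1.02% of all genes were called higher and 0.106% lower. Summed astrocyte markers were 2355 and 1761 CPM in KA mice 67 and 98, 458 CPM in mouse 8 and 724 CPM in the PBS mouse. Summed endothelial markers did not follow the m6A libraries. They were 851 and 427 CPM in KA mice 67 and 98, 1205 CPM in mouse 8 and 883 CPM in the PBS mouse. The part of these cells was not tested.

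**Figure D4:**
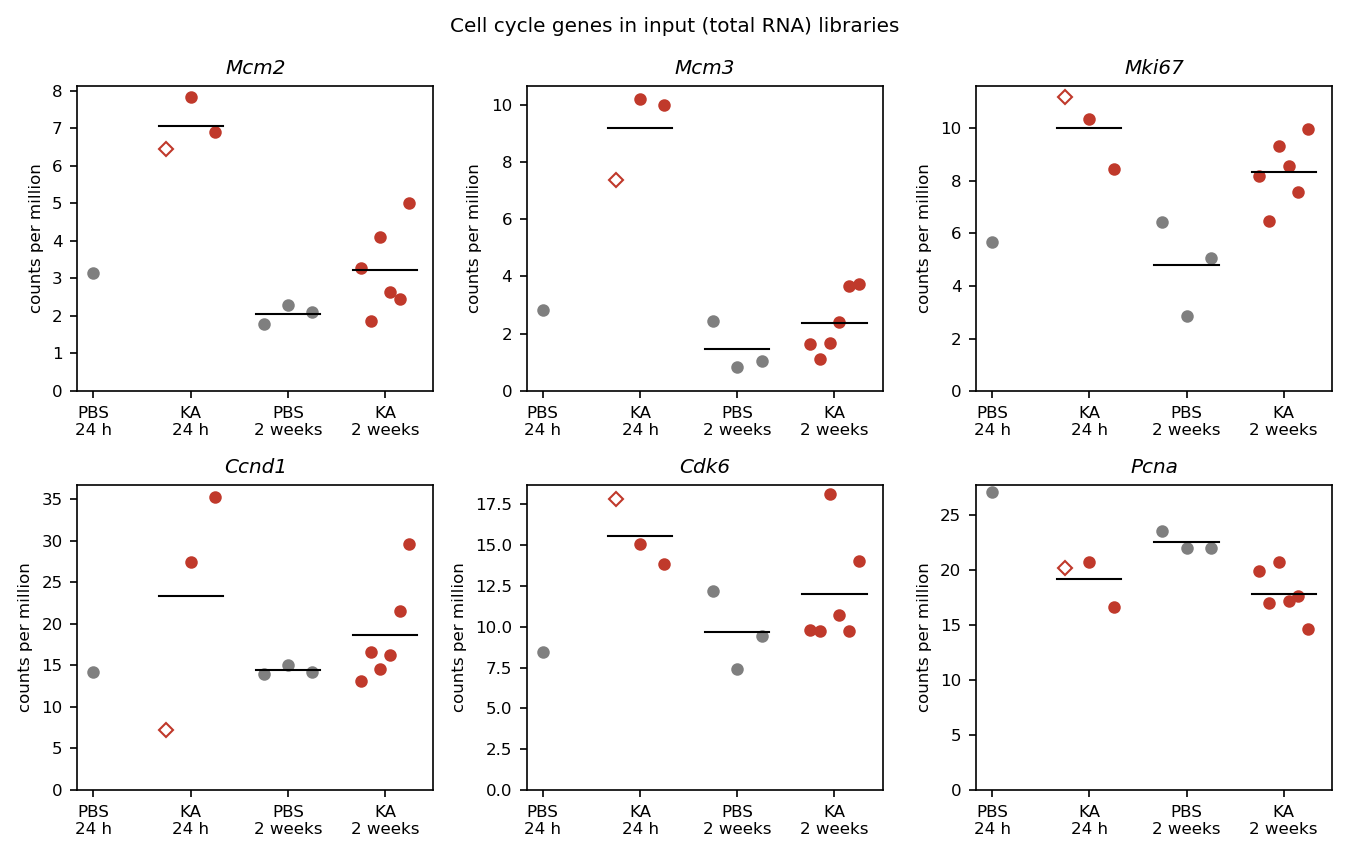
CPM (vertical axis, from 0) of 6 cell cycle genes in each input library, by treatment and time. Each point is 1 mouse, the line is the group mean where a group has more than 1 library, and the open diamond is KA mouse 8; Mcm2 and Mcm3 are above the single 24 h PBS library in all 3 KA libraries.

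By 2 weeks the MCM genes of KA and PBS mice overlapped in the m6A libraries. Mcm5 read 0.30, 1.46 and 1.5 CPM (lowest, median and highest of 5 PBS mice) and 0.88, 1.32 and 3.01 CPM in 6 KA mice. KA exceeded PBS by 0.48 ± 0.42 on the log2 scale (SE, edgeR adjusted p = 0.878). The 2 highest KA values, 2.40 and 3.01 CPM, were those of mice 21 and 42. These mice were also the highest of the 6 for Mcm2, Mcm3, Mcm4 and Mcm6, and their summed MCM level was 46.2 and 53.9 CPM against 22.3 to 32.5 CPM in the other 4 KA mice and 19.3 to 34.2 CPM in PBS mice. Their summed microglia markers, 460 and 741 CPM, were also the 2 highest of that time. Their summed astrocyte markers were 1767 and 4065 CPM, against 757 to 1878 in the other KA mice. Mitochondrial transcripts took 3.18% and 2.70% of their counts, against 6.64% to 17.54% in the other KA mice and 3.06% to 10.06% in PBS mice. The part of these cells and of the mitochondrial share was not tested. PBS mouse 4, the lowest value for Mcm5, had the shallowest library of that time, and its value rests on 2 counts.

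The other genes of 2 weeks in m6A libraries overlapped as well. Mki67 read 6.23, 6.77 and 13.3 CPM in PBS mice and 6.26, 12.2 and 15.9 CPM in KA mice, with a log2 fold change of 0.49 ± 0.28. Top2a read 0.76, 7.60 and 9.51 CPM against 7.75, 10.1 and 11.4 CPM (0.68 ± 0.40). Prc1, which bundles the microtubules of the dividing spindle, had the smallest p: 2.89, 5.07 and 8.06 CPM in PBS mice and 6.18, 8.37 and 10.1 CPM in KA mice (0.77 ± 0.26, adjusted p = 0.875, edgeR). Cdk1 read 0, 0.78 and 0.98 CPM against 0.82, 1.07 and 1.24 CPM (0.69 ± 0.45), Ccna2 0.61, 1.17 and 2.81 CPM against 1.38, 2.5 and 3.69 CPM (0.60 ± 0.42). Ccnd1, Ccnd2 and Pcna had log2 fold changes of -0.05, 0.19 and -0.10, each smaller than its SE or near it. Of 34 genes tested 26 were above 0, with a median of 0.36 against -0.00 over all 16157 genes. Of the 34, 2 had an unadjusted p under 0.05, Prc1 and Cdk6 (0.54 ± 0.24), both higher in KA, where 2.85% of all genes were and 2.16% were lower. Library sets were uneven here too, with KA in 3 and 5 and PBS in 4 and 5. With the set as a block Mki67 was at 0.96 (unadjusted p = 0.0131, adjusted p = 1) and in set 5 alone at 0.98 (unadjusted p = 0.0138, adjusted p = 0.956, edgeR). Set 3 held only KA and set 4 only PBS libraries, so both values rest on the set 5 libraries and are not separate results. With that block Prc1 and Cdk6 had unadjusted p = 0.128 and 0.0543, and 1.4% of all genes were higher and 1.74% lower at an unadjusted p under 0.05. DESeq2 and voom called none of the 34, and 0.0928% and 0.0124% of all genes higher. No gene of the 34 had every KA library above or below every PBS library; over all genes 0.26% were above and 0.334% below.

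In input libraries of 2 weeks, Mki67 stood highest in significance. Its 3 PBS mice read 6.44, 2.85 and 5.07 CPM, and the 6 KA mice 6.49, 8.37 and 9.99 CPM (lowest, median, highest). The groups did not overlap, though the highest PBS and the lowest KA value, 6.44 and 6.49 CPM, nearly met. The log2 fold change was 0.81 ± 0.24 (SE; unadjusted p = 0.0048, adjusted p = 0.266, edgeR). Pcna lay on the other side, at 22.0 to 23.5 CPM in PBS and 14.7 to 20.7 CPM in KA mice, with -0.31 ± 0.14 (adjusted p = 0.35, edgeR). These 2 were the only ones of the 25 tested whose groups did not overlap, where over all genes 2.64% lay above and 3.8% below. Mcm6 had 0.65 ± 0.27 and Mcm5 0.07 ± 0.38. Of the 25 genes, 17 were above 0, with a median of 0.07 against 0.02 over all 13752. An unadjusted p under 0.05 was reached by 3, Mki67 and Mcm6 higher and Pcna lower, where 8.41% of all genes were higher and 5.69% lower. DESeq2 called none of the 25 (0.524% of all genes higher, 0.298% lower) and neither did voom (1.44% and 1.16%). The other 15 of the 40, Cdk1 and Ccna2 among them, were too low to be tested.

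Whether the response to KA differed between 24 h and 2 weeks was tested as an interaction. None of 38 cell cycle genes passed in m6A libraries, where 1 of 17440 genes (0.00573%) was called, and none of 37 in input libraries, where 0 of 17644 were. In m6A libraries with all mice Mcm2 was the only one with an unadjusted p under 0.05: its log2 fold change was larger by 1.39 ± 0.66 at 24 h (unadjusted p = 0.0489, adjusted p = 1, edgeR), where 1.82% of all genes were higher and 0.636% lower by that rule. In input libraries none was under it, where 1.6% and 1.48% of all genes were. Neither DESeq2 nor voom called any of them in either kind of library. In m6A libraries DESeq2 called 0.0287% of all genes higher, and voom 0.298% higher and 0.0573% lower. In input libraries DESeq2 called 0.0227% lower, and voom none. Without mouse 8, edgeR called none of 36 cell cycle genes in m6A libraries, where 0.00581% of 17219 genes were called higher and 0 lower. In m6A libraries 4 of the 36 then had an unadjusted p under 0.05, where 1.86% of all genes were higher and 2.98% lower by that rule. Mcm2 (1.55, edgeR unadjusted p = 0.0297, adjusted p = 0.959) and Ccnd1 (0.90, edgeR unadjusted p = 0.0325, adjusted p = 0.959) were higher. Prc1 (-0.84, edgeR unadjusted p = 0.0341, adjusted p = 0.959) and Birc5 (-0.94, edgeR unadjusted p = 0.0417, adjusted p = 0.959) were lower.

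Last, the m6A and input libraries of 2 weeks were set against each other. The m6A libraries are labelled as polyadenylated RNA and the input as total RNA, so this ratio also holds that difference. Ccnd3 was lower in m6A than in input libraries in both treatments. In PBS mice 2, 3 and 4 it read 22.2, 35.4 and 32.5 CPM in input and 10.2, 12.2 and 4.86 CPM in m6A libraries. In KA mice it read 15.1 to 43.3 CPM in input and 7.25 to 16.4 CPM in m6A libraries, lower in m6A in all 6 mice. The log2 ratio was -2.06 ± 0.32 in PBS mice (adjusted p = 0.00178) and -1.44 ± 0.26 in KA mice (adjusted p = 0.00463, edgeR). Of all 16141 genes, 1.13% were called lower and 1.18% higher in PBS mice, and 0.911% and 2.17% in KA mice. This fit did not pair the libraries of a mouse. With the mouse as a block, Ccnd3 had -1.997 in PBS mice (adjusted p = 0.0295, edgeR). In KA mice it then had -1.418 (adjusted p = 0.00867, edgeR).

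Without the mouse as a block, Ccnd2 passed in KA mice only (-0.59 ± 0.14, adjusted p = 0.0244, edgeR). Its log2 ratio in PBS mice was much the same size (-0.61 ± 0.18, adjusted p = 0.0707, edgeR). With the mouse as a block it passed in PBS mice too (-0.85, adjusted p = 0.0326, edgeR), where 1.09% of all genes were called higher and 0.598% lower. DESeq2 also called it there, with 3.31% of all genes higher and 2.27% lower. With library size scaling it no longer passed in KA mice (-0.41, adjusted p = 0.0731), while Cenpf (0.86, adjusted p = 0.0238) and Cenpe (0.82, adjusted p = 0.0399), both kinetochore proteins, did; 7.65% of all genes were then called higher and 0.52% lower. limma voom called 3 of the 32 genes in PBS mice, all lower, where it called 6.78% of all genes higher and 5.67% lower. In KA mice it called 2 higher and 6 lower, where it called 14% and 13.5% of all genes. The mouse block added, in KA mice, Cdk4 (-0.52, adjusted p = 0.0456) and Cenpf (0.64, adjusted p = 0.0265), where 5.88% of all genes were called higher and 3.94% lower. Ccnd1 showed no such gap, with m6A over input from 0.548 to 1.24 across the 9 mice. Both Ccnd2 and Ccnd3 share their locus with other annotated transcripts, and the strand setting of the counting is not stated, so part of their counts may come from those. None of 32 cell cycle genes passed the edgeR test of KA against PBS in its m6A over input ratio, which called 0 of 16141 genes. The median difference was 0.08 against -0.04 over all genes. An unadjusted p under 0.05 was reached by 0 of the 32 with edgeR or DESeq2 and by 1 with voom. Over all genes edgeR had 1.7% higher and 2.35% lower by that rule, DESeq2 1.99% and 2.58%, and voom 3.75% and 4.6%.

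**Figure D5:**
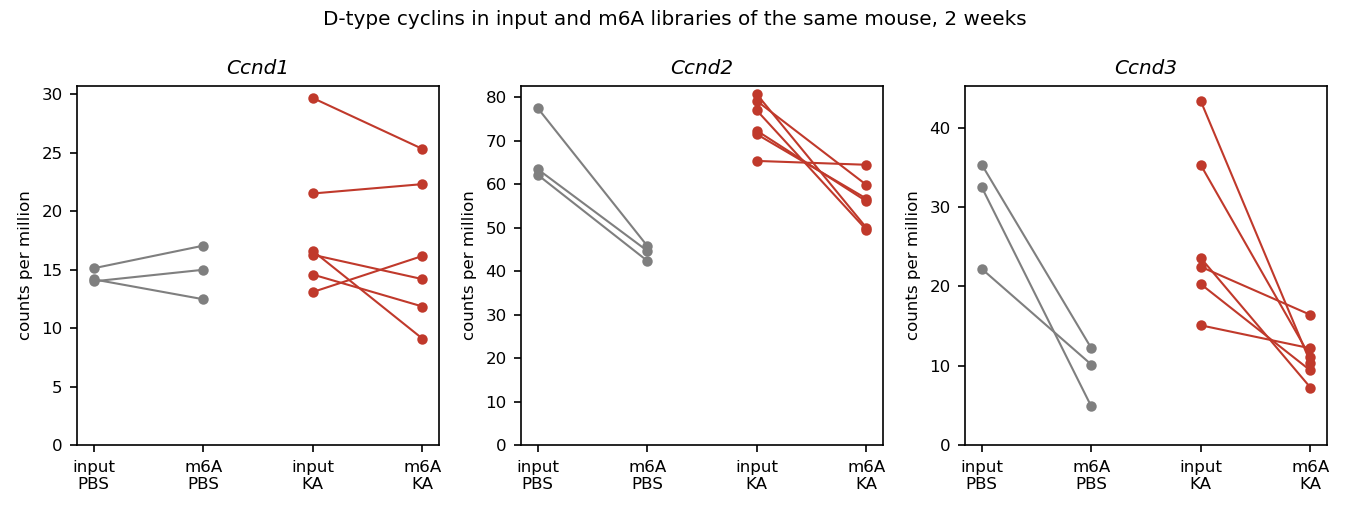
CPM (vertical axis, from 0) of the D-type cyclins in the input and m6A libraries of 3 PBS (grey) and 6 KA (red) mice of 2 weeks. Each line joins the libraries of 1 mouse; every mouse is lower in m6A for Ccnd2 and Ccnd3, and lines go both ways for Ccnd1.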

How the data were processed

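The deposited tables hold gene counts that the authors made from sequencing reads, 4 lanes per library; the build in the submitters' processing notes is mm10, and the aligner, the counter and its strand setting are not stated. Lanes were summed (32544 genes, 35 libraries). The assay was read from the column name in 8 libraries and inferred from its prefix in 27. A further 8 columns matched no sample and were not used. Input libraries under 100000 counts were left out.

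KA was compared with PBS within each time and assay by edgeR 4.0.16 (filterByExpr, TMM, robust quasi-likelihood; R 4.3.3), with DESeq2 1.42.0 and limma 3.58.1 (voom with sample quality weights) as alternatives, and Benjamini-Hochberg adjustment over all genes tested. Input libraries of 24 h were fitted together with those of 2 weeks. The code was tested on simulated data. Replicates are separate mice per the labels, and p-values measure the spread between them. By rule, Mki67, Top2a, Cdk1, Ccna2, Ccnd1, Ccnd2, Mcm5 and Pcna were named in each comparison of KA with PBS, with up to 8 past the threshold; other genes were named after their values were seen. The members and lists were chosen with earlier results of these data known. For m6A over input, 9 mice had both libraries, so the mouse number pairs them by design. Their deviations correlated at -0.0479 to 0.478. The main fit of this ratio did not use the pairing, and the mouse as a block was an alternative. CPM leave out TMM factors.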

Additional observations from a re-analysis of the deposited data

Results flagged for a closer look

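In 4 of 32 groups looked at (8 cell cycle genes), the end library lay far from its neighbours. Chance gives about 1 group in 20. The 8 genes were read in the same libraries, so the groups are not independent and 4 of 32 cannot be weighed against that rate. Each value is the gap to the nearest library as a share of the group's range. Of the KA m6A libraries of 24 h, mouse 8 was the highest for Top2a (30.0 against 12.6 CPM, share 0.744) and for Cdk1 (6.08 against 1.81 CPM, share 0.799), and the lowest for Ccnd1 (6.83 against 31.8 CPM, share 0.883). Of the PBS m6A libraries of 2 weeks, mouse 4 was the lowest for Mcm5 (0.304 against 1.44 CPM, share 0.948).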

How the results depend on the processing

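Of 126 counts of cell cycle genes past an adjusted p of 0.05 under alternatives, 117 were unchanged or stayed within 1.5 times the reported count. In the comparisons of KA with PBS the reported count was 0, and hardly any gene in the table was called. A count that stays at 0 there says little of stability. In m6A libraries of 24 h the count went from 0 to 5 with voom and to 1 within library set 4. In input libraries of 24 h it went from 0 to 4 with voom and to 2 with the PBS mice of both times. For m6A over input in PBS mice it went from 1 to 2 with DESeq2, to 2 with the mouse as a replicate block and to 3 with voom, and in KA mice from 2 to 4 with that block and to 8 with voom. Leaving out each mouse kept the count at 0 in every comparison of KA with PBS; without PBS mouse 1, input libraries of 24 h gave no value. No mouse was in both treatments, so no block by mouse was possible there.

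Of 866 log2 fold changes of single genes, 811 kept direction and side, 22 newly passed, 1 no longer passed (Ccnd2, m6A over input in KA mice with library size scaling, -0.41) and 32 changed sign. In m6A libraries of 24 h these were Cdk1 (voom -0.24, library set as a block -0.082, set 4 alone -0.084) and Ccna2 (voom -0.017, no filter -0.11, leaving out mice -0.59 to 0.81). In m6A libraries of 2 weeks they were Mcm5 (voom -0.035), Pcna (voom 0.071, leaving out mice -0.25 to 0.18) and Ccnd1 (set block 0.18, set 5 alone 0.20, leaving out mice -0.21 to 0.057). In input libraries of 24 h they were Cdk1 (voom -0.70), Ccna2 (voom -0.21, set block -0.018, leaving out mice -0.35 to 0.67) and Pcna (all labelled libraries 0.10). In input libraries of 2 weeks they were Mcm5 (set block -0.17, leaving out mice -0.10 to 0.34) and Top2a (leaving out mice -0.17 to 0.32). The KA change of m6A over input of Ccnd2 was -0.027 with library size scaling. The causes were not tested. The within-set fits, and voom for m6A over input and for the input comparison of times, were added after seeing the data. In m6A libraries the within-set fits and the set block draw on the same comparison of KA with PBS. Library size scaling moved the median of all genes from 0.07 to 0.31 for m6A over input in PBS mice and from -0.01 to 0.19 in KA mice. At 1 count, the shallowest m6A libraries read 0.505 and 0.605 CPM, so genes near 1 CPM are poorly resolved.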
